A study of Homo sapiens with 4 samples.

Results

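The genes described here are 40 named genes of the lysosome and its proton pump: the 3 transcription factors TFEB, TFE3 and MITF, lysosomal membrane proteins, cathepsins, other hydrolases and their cofactors, and subunits of the vacuolar ATPase. They were listed by name rather than picked by their values, although earlier results of these data were known when the lists were made. Of the 40, 39 had at least 1 probe set annotated to exactly 1 gene, out of 19751 genes tested in all, and these 39 had 99 probe sets. The remaining gene, GLB1, had no such probe set.

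Lysosomes are acidic organelles in which hydrolases degrade proteins, lipids and glycans. The vacuolar ATPase (V-ATPase), a rotary proton pump made of a membrane sector (V0) and a cytosolic, ATP-hydrolysing sector (V1), keeps their lumen acidic. Many genes of the organelle carry E-boxes near their start sites that are bound by TFEB and its relatives TFE3 and MITF, the transcription factors known to drive lysosomal gene expression when mTORC1 is inactive or nutrients are scarce.

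RNA came from KYSE170, an established human line of oesophageal squamous cell carcinoma, grown in serum-containing medium. Cells were either left untreated (2 arrays) or exposed for 12 h to 50 µg/ml of ethyl-3,4-dihydroxybenzoate (EDHB; 2 arrays), an inhibitor of the iron- and 2-oxoglutarate-dependent prolyl hydroxylases. The labels name no vehicle for the untreated cells and do not say whether the arrays of a group came from separate cultures. The p-values therefore cover the spread among 4 arrays, which may be technical. The comparison asked which genes differed after EDHB in this 1 cell line.

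In the deposited table the rows of both replicate 2 columns were shuffled relative to replicate 1. Row identities were recovered from untreated levels for 54459 of 54613 probe sets, including all 99 of the 39 genes, and every replicate 2 value below rests on that recovery. Of the 193 rows listed in replicate 2 as changed by 2-fold or more, 80 were not recovered, so shares over all genes leave out some strongly changed probe sets. Levels below are log2 intensities, which are not comparable between probe sets, and each gene is read by its brightest restored probe set. A probe set under the median of the 54459 recovered probe sets (4.54) has a level that was not shown to be above background. Among the squamous markers SFN, PERP, DSG3 and KRT5 were above that median on all 4 arrays, whereas KRT14 was below it (3.19 to 4.30). The leukocyte markers PTPRC, CD14, LYZ and CSF1R lay below it (1.68 to 4.39), and AIF1 lay near it (4.49 to 4.87). Of the endothelial markers, PECAM1 lay above it (4.83 to 5.21) and CDH5 and VWF below. Of the fibroblast markers, COL1A1 lay above it (6.26 to 6.49) and COL1A2, COL3A1, DCN and LUM below. CTSS, the cathepsin typical of antigen-presenting cells, was the only one of the 39 genes below the median, at 3.98 to 4.20.

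Most of the 39 genes had slightly higher values after EDHB, and none of the differences passed the threshold in the main test. The largest were 0.61 log2 units for NPC1, which exports cholesterol from the lysosome, 0.37 for SCARB2 and 0.36 for GLA. In limma with Benjamini-Hochberg adjustment over all genes, 0 of 39 had an adjusted p under 0.05, against 2 of 19751 genes in all (0.0101%), and 8 of 39 had an unadjusted p under 0.05, all of them higher (20.5%). The background share of genes with an unadjusted p under 0.05 was 8.81% for higher and 7.98% for lower, and 11.3% for higher among genes above the median level. The 8 became 3 of 39 without untreated replicate 2, without EDHB replicate 1 or without EDHB replicate 2, and 4 of 39 with the mean of probe sets. Over all genes, in either direction, the count went from 3317 to between 1692 and 2774 when 1 array was left out. The lowest adjusted p was 0.115, for NPC1. On simulated data with few changed genes the main fit recovered 0% of genes changed by 0.5 log2 units. In that setting it could hardly call changes of that size or smaller, and whether the setting matches these arrays was not tested. With an intensity trend in the prior variance, 1 of 39 genes passed, NPC1, against 375 genes in all (1.90%).

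The same direction was found in most of the genes. In 23 of 39 genes (59.0%) both EDHB arrays lay above both untreated arrays, compared with 23.2% of all genes and 28.5% of genes above the median level. In 2 of 39 genes both EDHB arrays lay below, compared with 22.5% of all genes, and in 14 the groups overlapped. Within both replicate pairs, 27 of 39 genes (69.2%) were higher, against 31.0% of all genes and 35.7% of those above the median level. The median change was 0.11 log2 units over the 39 genes and -0.00 over all genes, and it was 0.10 within replicate 1 and 0.14 within replicate 2. The median absolute change, 0.11, was about as large as the difference between replicate arrays. The median absolute difference over these genes was 0.10 between the untreated arrays and 0.07 between the EDHB arrays. Untreated replicate 1 lay above untreated replicate 2 in 28 of the 39 genes. The part of that array difference in the changes was not tested.

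**Figure D1:**
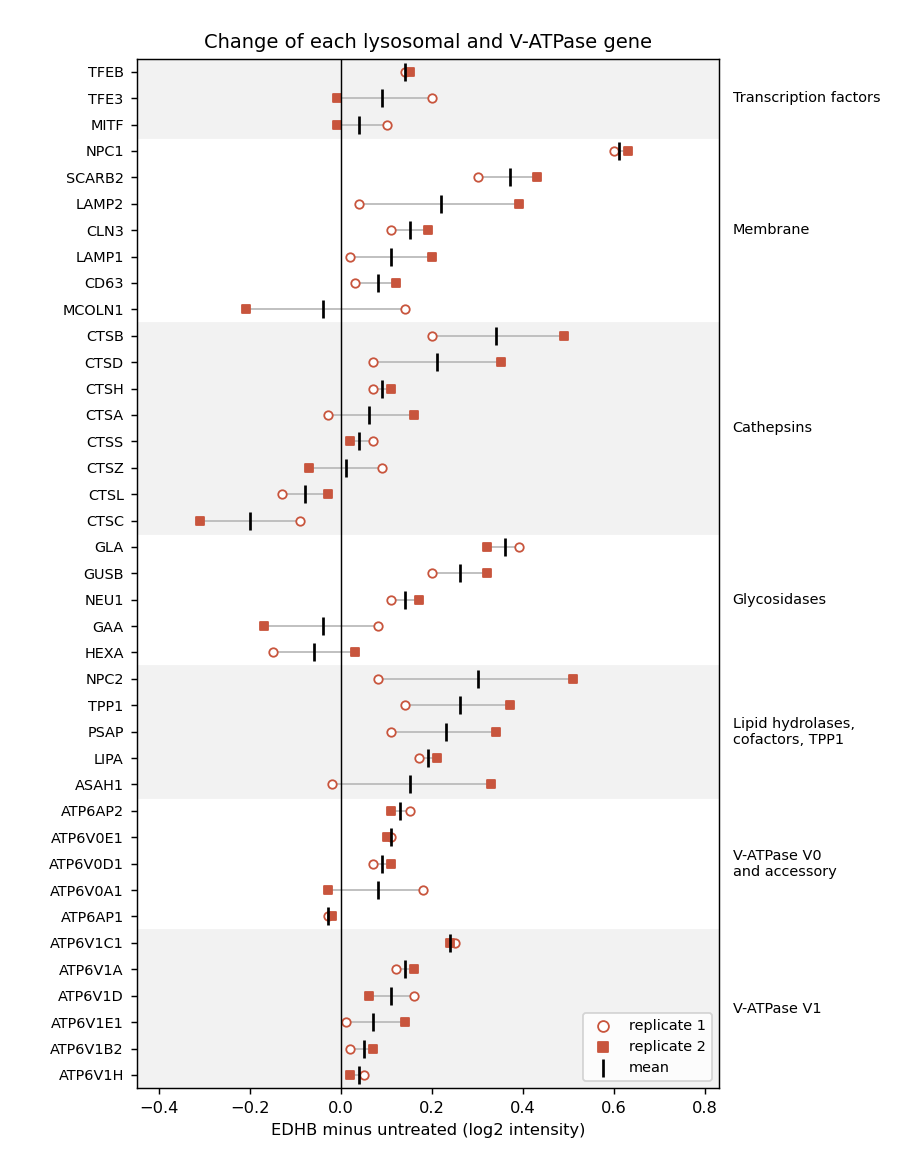
Log2 change (EDHB minus untreated) of each of the 39 genes, ordered by role, with the change within replicate 1 (open circles), within replicate 2 (filled squares) and their mean (black bars). NPC1 stands to the right of all others at 0.61, 33 of 39 means lie above 0, and CTSC has the lowest mean at -0.20.

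TFEB, a basic helix-loop-helix leucine zipper factor, read 5.89 and 5.98 in untreated cells and 6.03 and 6.13 with EDHB. Its groups did not overlap, and the difference of 0.14 ± 0.08 (SE, n = 2 each) did not pass (adjusted p = 0.468, limma). A second TFEB probe set, also above the median level, read 5.45 and 5.42 untreated and 5.74 and 6.04 with EDHB, a difference of 0.46. Both probe sets of TFEB were therefore higher on both EDHB arrays, by unequal amounts. TFE3, its close relative, read 7.50 and 7.55 untreated and 7.70 and 7.53 with EDHB. The higher EDHB value of TFE3 came from replicate 1 alone, and the groups overlapped (0.09 ± 0.09, SE, n = 2 each). The other TFE3 probe set above the median level read 5.66 and 5.67 untreated and 5.82 and 5.87 with EDHB, without overlap. MITF, known best from melanocytes, read 8.21 and 8.27 untreated and 8.31 and 8.25 with EDHB. Its groups also overlapped, with a change of 0.04 ± 0.08 (SE, n = 2 each). These are transcript levels, while the activity of the MiT/TFE factors is known to be set largely by phosphorylation and nuclear entry, which arrays do not read.

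The sequence these factors recognise, an E-box with the core CACGTG, was searched in RefSeq promoter windows (GRCh38.p14; 250 bases before to 50 bases after a gene start). Windows were found for 29 of the 40 listed genes. The genes not matched were LAMP2, CTSB, CTSS, HEXA, PSAP, ASAH1, ATP6V0E1, ATP6V1A, ATP6V1B2, ATP6V1C1 and ATP6V1H. The core was present in a window of 9 of the 29 genes (31.0%) and of 17 of 51 other lysosomal genes (33.3%), against 8.8% of 27305 genes in all. Per window the shares were 22.2% of 45 for the listed genes and 7.3% of 35116 in all. The 8-base palindrome TCACGTGA, which contains the core, was present in 6 of 29 genes (20.7%) and in 1.2% of all genes. A 10-base palindrome, the 8-base form with a G before and a C after it, was present in 2 of 29 (6.9%) and in 0.4% of all. The 7-base form TCACGTG was present in 27.6% of the 29 genes and in 4.5% of all. The forms overlap, each longer one containing the shorter, and both strands were searched. A match describes these letters only and is not evidence of binding.

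The stretches below are examples of the longest matches and of repeated E-boxes, each read 5′ to 3′ on the gene's strand from bases before the start, with the longest match in capitals. GAA, the lysosomal alpha-glucosidase, holds the 10-base form at 2 places (chr17:80101486-80101574, plus strand).
GAA: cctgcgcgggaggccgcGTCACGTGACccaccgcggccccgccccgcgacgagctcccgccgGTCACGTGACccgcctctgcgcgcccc
MCOLN1, the lysosomal calcium channel TRPML1, holds an 8-base and a 10-base form (chr19:7522565-7522623, plus strand).
MCOLN1: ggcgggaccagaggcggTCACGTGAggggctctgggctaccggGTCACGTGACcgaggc
LAMP1, a glycoprotein of the lysosomal membrane, holds 4 copies of TCACGTG in a row (chr13:113297029-113297119, plus strand) and 2 copies of the 8-base form closer to the start, not shown.
LAMP1: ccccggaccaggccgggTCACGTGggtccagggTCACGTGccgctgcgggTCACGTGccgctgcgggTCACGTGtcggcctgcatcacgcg
CTSA, the carboxypeptidase cathepsin A, holds a 7-base and an 8-base form (chr20:45891275-45891333, plus strand).
CTSA: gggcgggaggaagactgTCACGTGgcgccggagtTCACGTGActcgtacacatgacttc
ATP6V0D1, the d subunit of V0, holds 1 copy of the 8-base form (chr16:67481193-67481234, minus strand).
ATP6V0D1: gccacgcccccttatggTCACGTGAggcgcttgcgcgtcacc
NPC1 and SCARB2, shown for comparison because their levels differed most between the groups, had no CACGTG in the 100 bases before the start (chr18:23586507-23586606 and chr4:76213825-76213924, both minus strand).
NPC1: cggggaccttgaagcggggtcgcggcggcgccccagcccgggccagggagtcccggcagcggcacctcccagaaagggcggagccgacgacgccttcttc
SCARB2: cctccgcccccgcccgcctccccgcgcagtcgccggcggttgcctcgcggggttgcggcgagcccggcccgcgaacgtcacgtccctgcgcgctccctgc

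**Figure D2:**
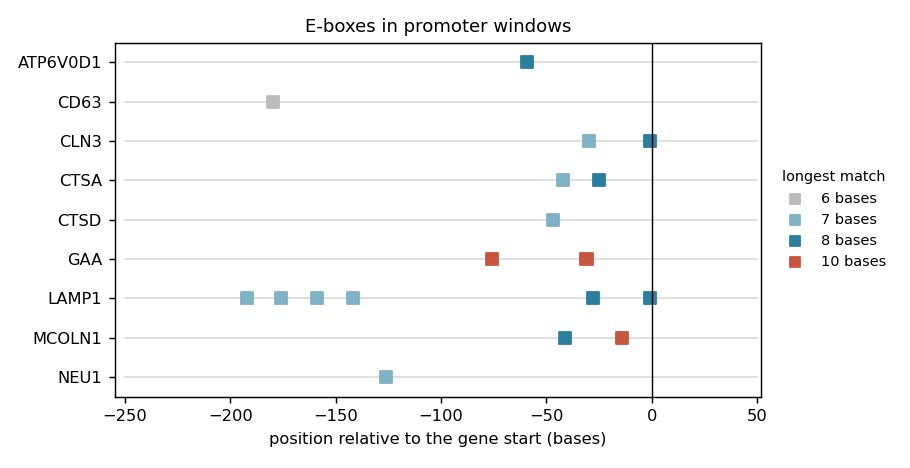
Position of each CACGTG core in the promoter windows of the 9 genes that hold one, in bases from the gene start (0), coloured by the longest form matched. All 18 cores start before the gene start, 12 of them within 100 bases of it, and GAA and MCOLN1 hold the 10-base form.

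The 3 largest changes were all in genes with a window and no CACGTG core, the only core searched. Over the 9 genes with one (ATP6V0D1, CD63, CLN3, CTSA, CTSD, GAA, LAMP1, MCOLN1 and NEU1) the median change was 0.09, with a range of -0.04 to 0.21, and 5 of 9 had both EDHB arrays above both untreated arrays. Over the 19 measured genes with a window and no core the median was 0.11, with a range of -0.20 to 0.61, and 11 of 19 had both EDHB arrays above. Over all genes both EDHB arrays lay above in 23.2%, and in 28.5% of those above the median level. The 11 listed genes without a window, among them CTSB, PSAP, LAMP2 and ATP6V1C1, are in neither set. The medians and counts of both sets are a description, and the difference between the sets was not tested. GAA, with a pair of 10-base forms, read 6.94 and 6.92 untreated and 7.02 and 6.76 with EDHB. Its EDHB arrays lay on either side of the untreated ones. MCOLN1 read 6.81 and 6.91 untreated and 6.95 and 6.69 with EDHB, which again overlapped.

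Among the membrane proteins, 6 of 7 were higher within both replicates, against 31.0% of all genes and 35.7% of those above the median level. NPC1, the membrane protein that exports cholesterol from the lysosome, read 9.25 and 9.11 in untreated cells and 9.85 and 9.74 with EDHB. Both EDHB arrays stood well above both untreated arrays, by 0.60 and 0.63 within replicates 1 and 2. The difference of 0.61 ± 0.09 (SE, n = 2 each) corresponds to 1.53-fold and had an adjusted p of 0.115 in limma and of 0.028 with the intensity trend. The call with the trend was lost when any 1 array was left out, with adjusted p from 0.307 to 0.54, and with the replicate block added (0.186). All 3 further probe sets of NPC1 were also higher, by 0.36, 0.31 and 0.21, the last 2 from below the median level. SCARB2, the receptor that carries glucocerebrosidase to the lysosome, read 8.80 and 8.72 untreated and 9.10 and 9.15 with EDHB. Its groups did not overlap, and the change of 0.37 ± 0.08 (SE, n = 2 each) did not pass (adjusted p = 0.151, and 0.0549 with the trend). The further probe sets of SCARB2 gave 0.53, 0.28 and 0.08.

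LAMP1 and LAMP2 are the most abundant glycoproteins of the lysosomal membrane. LAMP1 read 11.35 and 11.24 untreated and 11.36 and 11.43 with EDHB. The gap between the nearest arrays of the groups of LAMP1 was small, and 2 of its 3 further probe sets went the other way (-0.06 and -0.08). LAMP2 read 9.36 and 9.18 untreated and 9.40 and 9.58 with EDHB, a change of 0.22 ± 0.11 (SE, n = 2 each) that came mainly from replicate 2 (0.39, against 0.04 in replicate 1). Its further probe sets gave 0.28, 0.17 and -0.00. The tetraspanin CD63 and CLN3, the membrane protein of juvenile neuronal ceroid lipofuscinosis, differed by 0.08 and 0.15, and neither had an adjusted p under 0.05 in limma.

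The cathepsins went in both directions, and their median was 0.05. CTSB, a cysteine protease, read 8.23 and 8.06 untreated and 8.43 and 8.55 with EDHB. Its EDHB arrays were both higher, and all 4 further probe sets had positive changes as well, 0.08 to 0.34 (brightest 0.34 ± 0.10, SE, n = 2 each, adjusted p = 0.211). CTSD, the main aspartic protease of the lysosome, read 6.77 and 6.55 untreated and 6.84 and 6.90 with EDHB. The change of CTSD was 0.07 within replicate 1 and 0.35 within replicate 2, so its size rests on replicate 2. CTSC, the dipeptidyl peptidase that activates serine proteases of granules, went the other way. It read 10.07 and 10.22 untreated and 9.97 and 9.90 with EDHB, and all 3 further probe sets also had negative changes, -0.03 to -0.32, although 2 of the 3 were higher within replicate 1. The change of CTSC, -0.20 ± 0.09 (SE, n = 2 each), did not pass (adjusted p = 0.348). CTSL, another cysteine protease, was the other gene of the 39 with both EDHB arrays below both untreated arrays (-0.08 ± 0.08, SE, n = 2 each).

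CTSZ read 9.36 and 9.61 untreated and 9.45 and 9.54 with EDHB. Both EDHB values of this carboxypeptidase fell between the untreated ones. CTSA and CTSH, the latter an aminopeptidase, differed by 0.06 and 0.09, and the value of CTSS (0.04) comes from below the median level.

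Of the glycosidases, 3 of 5 had groups that did not overlap, all higher. Over all genes, both EDHB arrays lay above both untreated arrays in 23.2% and below them in 22.5%. GLA, the alpha-galactosidase deficient in Fabry disease, read 9.08 and 8.92 untreated and 9.48 and 9.24 with EDHB. Both EDHB arrays were higher, by 0.39 and 0.32 within replicates 1 and 2, and the mean change of 0.36 ± 0.12 (SE, n = 2 each) did not pass (adjusted p = 0.242). NPC1, SCARB2 and GLA were the 3 genes of 39 higher by at least 0.26 log2 units within both replicates. Over all genes, dim ones included, the share was 4.67%, and the difference of so few genes from it was not tested. GUSB, the beta-glucuronidase, read 9.52 and 9.38 untreated and 9.72 and 9.69 with EDHB. This change of 0.26 ± 0.09 (SE, n = 2 each) was not seen on its second probe set, which gave -0.12 at levels of 4.44 to 4.81. NEU1, a sialidase that works in a complex with cathepsin A, differed by 0.14. HEXA, the alpha subunit of beta-hexosaminidase, differed by -0.06 with overlapping groups.

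The lipid hydrolases, their cofactors, the sterol carrier NPC2 and the tripeptidyl peptidase TPP1 had the highest median of the roles, at 0.23 over 5 genes, and all 5 had a change above 0. The median was 0.11 within replicate 1 and 0.34 within replicate 2. NPC2, which hands cholesterol to NPC1 inside the lysosome, read 11.08 and 10.71 untreated and 11.16 and 11.22 with EDHB. The untreated arrays of NPC2 differed by more than any EDHB array did from untreated replicate 1, and the change of 0.30 ± 0.14 (SE, n = 2 each) did not pass (adjusted p = 0.374). TPP1 read 7.12 and 7.02 untreated and 7.26 and 7.39 with EDHB. Its 3 further probe sets gave 0.23, 0.10 and 0.01, beside 0.26 for the brightest. PSAP, the precursor of the saposins that present sphingolipids to their hydrolases, read 10.35 and 10.20 untreated and 10.46 and 10.54 with EDHB. Its groups did not overlap, and its second probe set gave 0.13 beside 0.23.

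LIPA, the acid lipase that frees cholesterol from its esters, differed by 0.19 ± 0.07 (SE, n = 2 each), by 0.17 and 0.21 within replicates 1 and 2. ASAH1, acid ceramidase, read 8.36 and 8.24 untreated and 8.34 and 8.57 with EDHB. Only EDHB replicate 2 of ASAH1 lay above both untreated arrays. The further ASAH1 probe sets above the median level gave 0.08, 0.10 and 0.16.

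**Figure D3:**
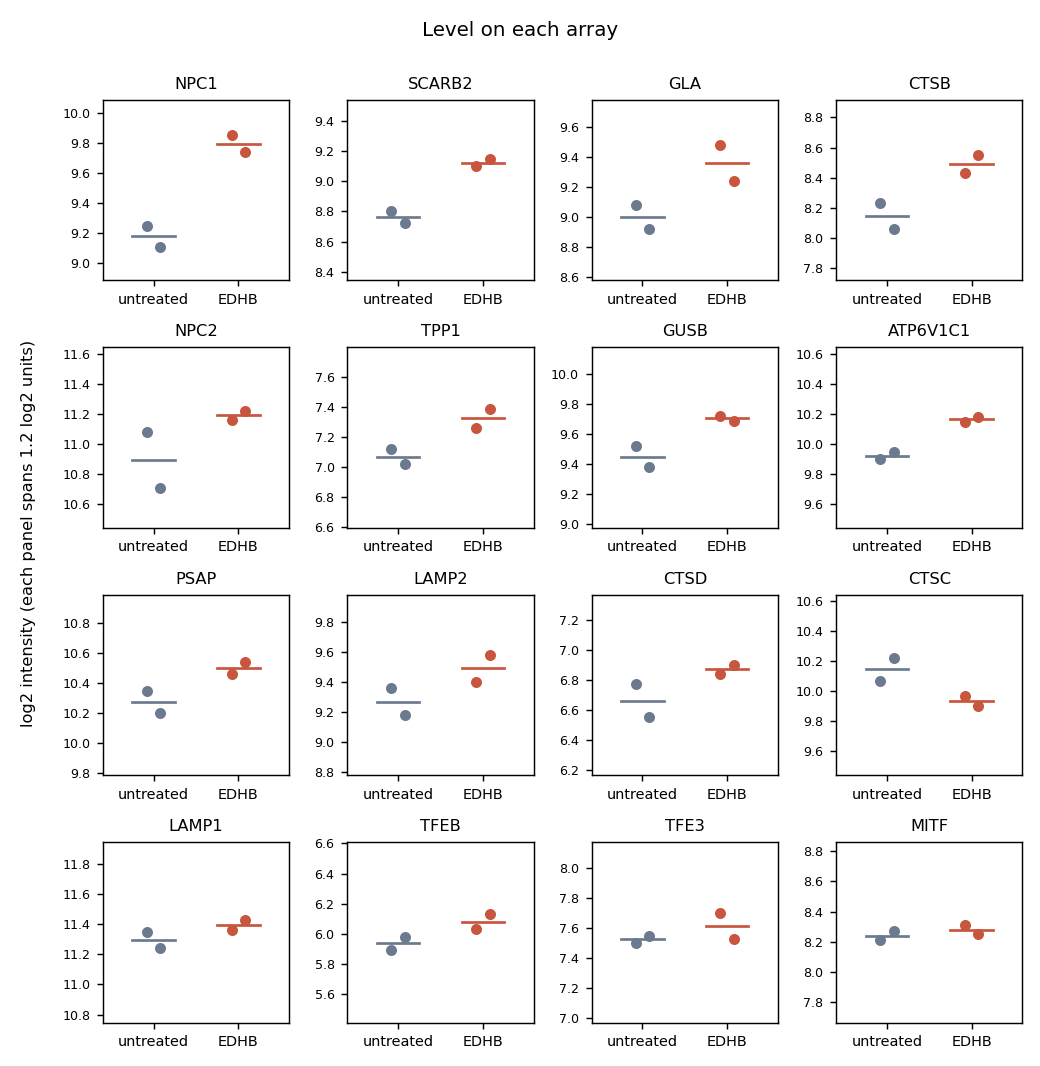
Log2 intensity on each array for the genes with the 12 largest changes in the same direction within both replicates, and for LAMP1, TFEB, TFE3 and MITF; points are arrays, bars are group means (n = 2 each), and every panel spans the same height. The groups overlap for TFE3 and MITF and for no other gene shown, and CTSC is the only one lower on both EDHB arrays.

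The V-ATPase subunits differed little. Of 11 genes of the pump, 10 had a change above 0, and the largest change was 0.24. In 7 of the 11 both EDHB arrays lay above both untreated arrays. The share with such values was 23.2% over all genes and 28.5% over those above the median level. ATP6V1C1, the C subunit that joins V1 to V0 during assembly of the pump, read 9.90 and 9.95 untreated and 10.15 and 10.18 with EDHB. Its groups stood well apart on this probe set (0.24 ± 0.07, SE, n = 2 each, adjusted p = 0.225), but its 3 further probe sets, all above the median level, gave 0.36, -0.05 and -0.25. The probe sets of ATP6V1C1 therefore disagreed in direction. ATP6V1A, the catalytic subunit, read 10.72 and 10.69 untreated and 10.84 and 10.86 with EDHB. Both ATP6V1A probe sets gave 0.14. ATP6V1B2, the non-catalytic partner of the A subunit, differed by 0.05, and ATP6V1D and ATP6V1E1, parts of the rotor and of a peripheral stalk, differed by 0.11 and 0.07. ATP6V1H, a regulatory subunit of V1, read 9.33 and 9.27 untreated and 9.38 and 9.30 with EDHB, and its groups overlapped.

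In the V0 sector and its accessory proteins the changes ran from -0.03 to 0.13. ATP6V0E1, the small e subunit, read 11.55 and 11.57 untreated and 11.66 and 11.67 with EDHB. The arrays of each group agreed closely, and the difference of 0.11 was not shared by all 6 further probe sets, of which 4 were higher and 2 lower. ATP6AP2, an accessory protein also known as the prorenin receptor, differed by 0.13, ATP6V0D1 by 0.09 and ATP6V0A1, an a subunit of the proton path, by 0.08. ATP6AP1, an accessory protein needed for V0 assembly, read 9.37 and 9.20 untreated and 9.34 and 9.19 with EDHB. Replicate 1 was above replicate 2 in both groups of ATP6AP1, and the groups overlapped.

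Of the 60 further probe sets of the 39 genes, 43 lay above the median level. Of these 43, 34 went in the direction of the brightest probe set of their gene and 9 in the other. The 9 belonged to LAMP1, LAMP2, GUSB, ATP6V0E1, ATP6V1C1 and ATP6V1D. For 14 genes there was only 1 probe set.

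**Figure D4:**
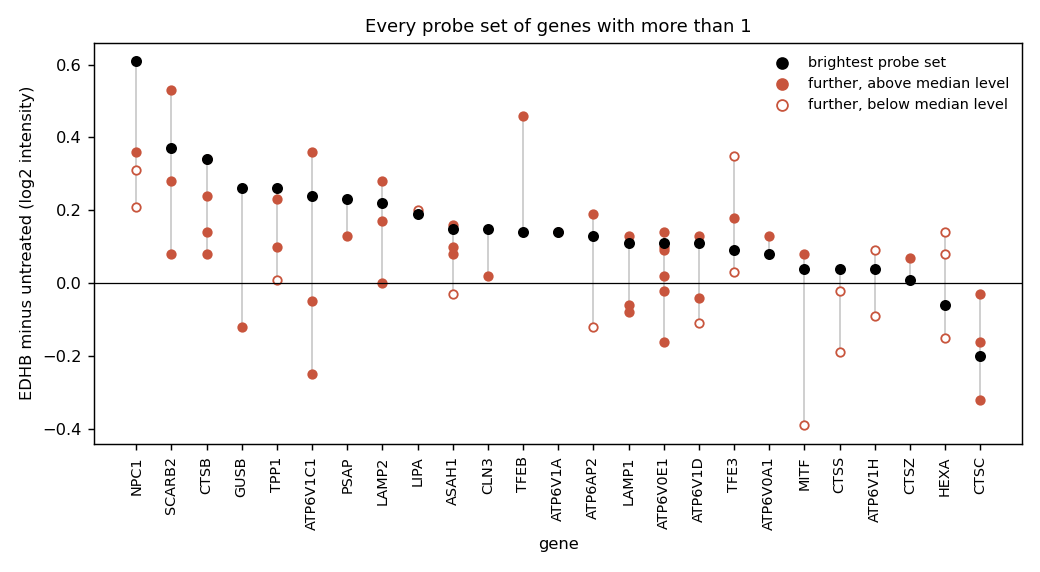
Log2 change (EDHB minus untreated) of every probe set of the genes with more than 1, with the brightest in black and further probe sets filled (above the median level) or open (below it). All probe sets of NPC1, SCARB2 and CTSB lie above 0 and all of CTSC below 0, while those of ATP6V1C1 run from -0.25 to 0.36.

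Further genes of the organelle were listed by name. Of 69 such genes 61 had a probe set, and 0 of 61 passed in limma with the default prior. At an unadjusted p under 0.05 there were 10, 9 higher (14.8%) and 1 lower. Over all genes the shares were 8.81% higher and 7.98% lower, and 11.3% higher above the median level. The lower gene of the 61 was ARSB, arylsulfatase B, which read 4.52 and 4.49 untreated and 4.06 and 4.12 with EDHB (-0.41 ± 0.08, SE, n = 2 each), below the median level. With the intensity trend 1 passed, LAMP3. In 22 of 61 (36.1%) both EDHB arrays lay above both untreated arrays, against 23.2% of all genes. In 9 they lay below, against 22.5% of all genes. Within both replicates 24 (39.3%) were higher, against 31.0% of all genes. Of the 61, 55 lay above the median level. These 55 held all 22 genes with both EDHB arrays above, 6 of the 9 with both below and all 24 higher within both replicates. Over all genes above that level the shares of higher genes were 28.5% and 35.7%, and the difference from them was not tested. The median change of the 61 genes was 0.05. For the 11 other V-ATPase subunits measured, 6 changes were above 0 and 5 below, with a median of 0.02. For the 11 measured genes of the Ragulator, Rag and folliculin group, which places mTORC1 on the lysosome and controls TFEB, the median was 0.09 and 0 had an unadjusted p under 0.05 in limma.

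LAMP3, a LAMP family protein known to be induced by hypoxia and by the unfolded protein response, read 7.18 and 7.22 untreated and 7.70 and 7.72 with EDHB. Its arrays agreed within each group to 0.04 or less, and the change was 0.51 ± 0.07 (SE, n = 2 each; adjusted p = 0.114, and 0.0378 with the trend). With the trend, this call was also lost with the replicate block (0.187) and when any 1 array was left out (adjusted p from 0.307 to 0.54). IGF2R, the large mannose 6-phosphate receptor that sorts hydrolases to the lysosome, read 8.64 and 8.59 untreated and 9.05 and 8.92 with EDHB (0.38 ± 0.09, SE, n = 2 each, adjusted p = 0.159). DNASE2, the acid DNase, read 7.42 and 7.40 untreated and 7.69 and 7.90 with EDHB. None of these groups overlapped, and neither did those of progranulin (GRN, 0.32) and acid sphingomyelinase (SMPD1, 0.30), which did not pass either. One of the further probe sets had the opposite sign for both IGF2R (of 2) and SMPD1 (of 3).

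**Figure D5:**
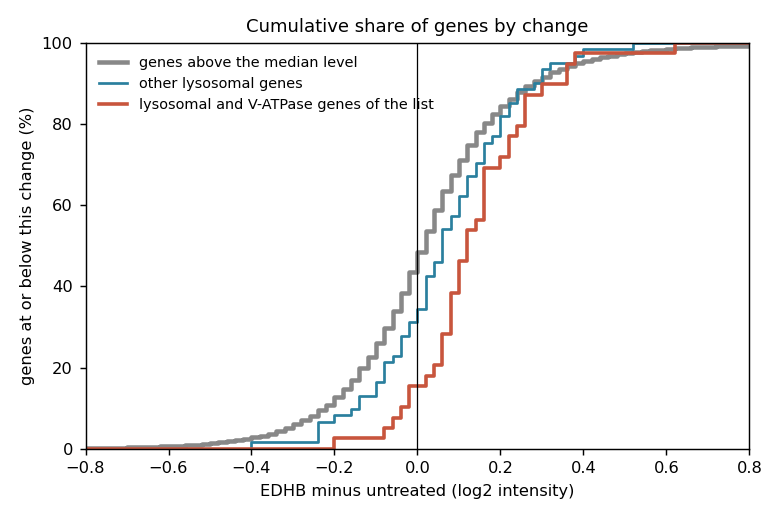
Cumulative share of genes (%) by log2 change (EDHB minus untreated) for the 39 lysosomal and V-ATPase genes, the 61 other lysosomal genes and the 12400 genes above the median level. The curve of the 39 genes lies to the right of the others over most of its range, with medians of 0.11, 0.05 and 0.01.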

How the data were processed

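The deposited table holds linear intensities for each probe set (1.55 to 13393; array medians 23.3 to 23.5), which the authors made by RMA, per the submitters' processing notes. The software and its version are not given in the sources used here. This step forces similar distributions on the arrays, so a global shift would not be seen. Analyses used log2 of these values, without a pseudocount, and having 2 arrays a group limits precision.

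The replicate 2 columns followed a list of their own (148 rows up, 45 down by 2-fold or more, then 54419 in ID order, and 1 empty row), an inference recorded in no label. To fit that order, 3 replicate 1 rows changed by at least 2-fold were kept out of the lists. Row identity was recovered by a forward-backward alignment of untreated levels (Student's t density, scale 0.15, 3 degrees of freedom, posterior minimum 0.95). It was tried on simulated data whose errors had the same density at a smaller scale, which is a lenient trial. EDHB arrays then correlated at 0.997 (0.418 as deposited), which wrongly matched rows of like level would also largely give. The changes within replicates 1 and 2 correlated at 0.376 after recovery and at 0.044 as deposited. Matching on untreated levels favours small differences between the untreated arrays. Changes within replicate 1 need no restoring.

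Gene names came from GEO's platform annotation (41091 with 1 gene, 1801 with several, 11721 with none listed). Limma 3.58.1 in R 4.3.3 compared EDHB with untreated over 19751 genes (no block, with 2 residual and 2.99 prior degrees of freedom). Data were simulated with few changed genes and with variances drawn from the prior of the trend fit. On them the main fit recovered 0% of genes changed by 0.5 log2 units and 66% of those changed by 1.0. With the intensity trend the shares were 22% and 78%. Wrong calls numbered 6 in the main fit and 8 with the trend. An exact permutation test of 2 arrays against 2 cannot go below p = 0.33. Python 3.11.15 did the rest.

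The genes, lists and tests were chosen with earlier results of these data known. Array values are given for the 3 transcription factors, LAMP1, genes called in either fit, the 12 largest changes of the same sign within both replicates and the smallest of each role. Among the other lysosomal genes, those called and the 5 largest changes with 1 sign within both replicates and a level above the median are named, and ARSB as the only lower gene at an unadjusted p under 0.05. The array values of ATP6V1A and ATP6V0E1, and the remarks on CTSL, LIPA and single further probe sets, were chosen after the values were seen. Alternatives covered the prior variance, pairing, scaling, probe set choice, dim genes, posterior minimum, pseudocount and single arrays.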

Additional observations from a re-analysis of the deposited data

How the results depend on the processing

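Over the 2 genes called in all (2 higher, 0 lower), limma gave 375 with the intensity trend, 426 with dim genes removed, 79 with a pseudocount of 16, 38 with the mean of probe sets, 40 after centring on medians (30 higher, 10 lower) and 7 after cyclic loess (5 higher, 2 lower). It gave 0 with a posterior minimum of 0.5, 0 when each probe set was a separate test, 0 with the replicate block and 0 without any 1 array, where a lone array is assumed to vary like the others. The intensity trend combined with the replicate block, or with any 1 array left out, was added after seeing the data and also gave 0. The replicate numbers are not shown to pair the arrays: deviations of same-numbered arrays correlated at 0.215, but only 2 pairs exist. No listed gene was called with the block, which left 6 at an unadjusted p under 0.05 (8 in the main test, 13 with the trend, 4 with the mean of probe sets). Over all genes, in either direction, limma gave 3208 at that threshold with the block. It gave 3317 in the main test, 3614 with the trend and 3175 with the mean of probe sets. Of the 39 genes, 1 (NPC1) was called with the intensity trend and 1 (NPC1) with dim genes removed, and of the other lysosomal genes 1 (LAMP3) under each of these and with the pseudocount. The adjusted p of NPC1 was 0.028 with the trend, 0.0356 with dim genes removed and 0.0566 to 0.575 in every other fit. The median change was 0.08 with the mean of probe sets, and 46 of 99 probe sets had both EDHB arrays above when each was counted. That count takes in several probe sets of the same gene, and no share over all probe sets was computed to set beside it. The number of listed genes with a change above 0 stayed between 31 and 35 of 39 in every fit with 1 value per gene and all 39 genes.

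Small changes turned sign in at least 1 alternative for 10 of the 39 genes. MITF gave -0.09 with the mean of probe sets. That mean takes in 1 MITF probe set below the median level (1.25 to 1.87), which gave -0.39. The MITF probe sets above the median level gave 0.04 and 0.08. ASAH1 gave -0.02, GAA 0.08 and MCOLN1 0.14 in the replicate 1 pair alone. With 1 array left out, MCOLN1 ran from -0.17 to 0.09, CTSZ from -0.12 to 0.13, ATP6AP1 from -0.11 to 0.06, GAA from -0.18 to 0.09, and ATP6V1H reached -0.00. CTSA gave -0.05 to -0.03, CTSS -0.06 to -0.03 and HEXA 0.00 where their signs turned. The cause was not tested. All of these had a size of at most 0.15 in the main test, near the spread between arrays.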

Other observations

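GLB1, the lysosomal beta-galactosidase, was outside the comparison because its probe set is also annotated to TMPPE. That shared probe set read 7.39 and 7.47 in untreated cells and 7.55 and 7.61 with EDHB, higher by 0.16 and 0.15 within replicates 1 and 2.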
